A study of Mus musculus with 18 samples.

Results

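The multi-copy gene families Tdpoz and Usp17l of the mouse 2-cell embryo were followed through 18 individual embryos. Their probe sets were taken by annotation alone: every probe set whose listed symbols are Tdpoz1 to Tdpoz5 or Usp17la to Usp17le, and nothing else. This gave 9 probe sets of 28815, 4 for Tdpoz and 5 for Usp17l, and no low-value filter was applied to them. Each embryo was hybridized alone to an Affymetrix Mouse Gene 1.0 ST array. All mothers were wild-type 129SVE females mated naturally; 9 embryos came from 3 wild-type fathers (WT1, WT2 and WT3) and are called WT, and 9 came from 3 Parg(110)-/- fathers (PargA, PargB and PargC) and are called Parg(110)-/+. The latter are heterozygous for a deletion of Parg exons 2 and 3, which removes the long isoform of poly(ADP-ribose) glycohydrolase from the fathers. The question of the study was whether fathers with disturbed poly(ADP-ribose) turnover, whose sperm exchange histones for protamines incompletely, have 2-cell progeny with other transcript levels. Each array pools both cells of 1 embryo, so fewer expressing cells and less RNA per cell cannot be told apart. An embryo is written as its father and its number, as in PargB-1. The genotype of an embryo is fixed by its father, so genotype and father cannot be separated beyond the 3 fathers of each kind.

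Embryonic transcription starts in earnest at the 2-cell stage in the mouse, while most transcripts laid down in the oocyte are being removed. A transient group of genes, many of them in young tandem clusters and many driven by the factor Dux or by MERVL retroviral promoters, is active in this window, and Tdpoz and Usp17l copies are known among them. Tdpoz proteins carry a TRAF (MATH) domain and a BTB/POZ domain, as does SPOP, a protein that brings substrates to ubiquitin ligases built on CUL3. Usp17l proteins are ubiquitin-specific proteases that remove ubiquitin; their older names are Dub1 (Usp17la), Dub1a (Usp17lb), Dub2 (Usp17lc), Dub2a (Usp17ld) and Dub3 (Usp17le), and the first of them were described as cytokine-induced genes of blood cell lines. By their domains the families would stand at opposite ends of ubiquitin metabolism, but a ligase role of Tdpoz proteins was not tested here. Neither family is a poly(ADP-ribose) enzyme.

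In the RefSeq annotation of GRCm38.p6, all 5 Tdpoz genes lie on chromosome 3 and all 5 Usp17l genes on chromosome 7. Tdpoz2 spans chr3:93651542-93652686, Tdpoz1 chr3:93669333-93676283 and Tdpoz3 chr3:93826020-93827117. Usp17ld spans chr7:103250086-103252505, Usp17lc chr7:103416696-103419174, Usp17lb chr7:104840257-104842583 and Usp17la chr7:104857016-104862667. The 10 genes were unequally covered by the array: 7 had a probe set of their own, Usp17le was represented only in 1 probe set that names Usp17la, Usp17lc, Usp17ld and Usp17le together (called shared Usp17l here), and Tdpoz4 and Tdpoz5 appeared only in 5 probe sets that also name Tdpoz7, Tdpoz8 or Tdpoz9. Those 5 are given as a side note and are not among the 9. Tdpoz2 had 2 probe sets, written with their numbers 10493999 and 10499961. The copies are close in sequence, and how far a probe set named for 1 copy also binds transcripts of another was not tested.

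The start regions of the Usp17l genes are shown because these copies are almost the same there while their levels differed between embryos. RefSeq promoter windows (250 bases before to 50 after each annotated start, GRCm38.p6) were found for 7 of the 10 genes, namely Tdpoz1, Tdpoz4, Tdpoz5 and Usp17la to Usp17ld. The 56 bases below are the aligned stretch of the 4 Usp17l copies, upstream of the annotated start in each. The capitals mark TATAAA or the hexamer aligned to it.
Usp17lb, chr7:104842584-104842639, minus strand: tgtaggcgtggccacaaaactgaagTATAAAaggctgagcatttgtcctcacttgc
Usp17lc, chr7:103416583-103416638, plus strand: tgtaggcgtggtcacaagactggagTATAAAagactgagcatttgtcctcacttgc
Usp17ld, chr7:103252585-103252640, minus strand: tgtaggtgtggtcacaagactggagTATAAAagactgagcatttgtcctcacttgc
Usp17la, chr7:104856945-104857000, plus strand: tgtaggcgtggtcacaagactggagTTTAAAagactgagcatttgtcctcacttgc

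TATAAA was present in Usp17lb, Usp17lc and Usp17ld, with its first base at -31, -88 and -110 from the annotated start. Usp17la carried the substitution A2T, counted from 1 at the first base of TATAAA with the Usp17lb base first, and held no TATAAA elsewhere in its window on either strand. Outside the hexamer, Usp17la and Usp17lc were identical over the stretch (55 of 56 bases in all), whereas Usp17lb shared 51 of 56 bases with Usp17la. On both strands together, TATAAA was found in 13.6% of all 32851 promoter windows of the table, so its presence is not unusual. A match describes letters in a window and says nothing on which factor binds there.

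Tdpoz1 had no TATAAA but the longer TATATAA, 60 bases before its start. On the strand of the gene, as here, 2.2% of all windows held TATATAA, and 3.24% held it on either strand. Tdpoz1 is shown as the only Tdpoz member with both a window and a probe set of its own.
Tdpoz1, chr3:93676313-93676368, minus strand, with TATATAA in capitals: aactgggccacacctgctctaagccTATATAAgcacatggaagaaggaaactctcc
CCAAT occurred on at least 1 strand in the windows of Tdpoz1, Tdpoz5 and all 4 Usp17l copies, and in 37.4% of all windows. GATTNNATC, letters like those of Dux binding sites, occurred in none of the 7 windows and in 1.58% of all.

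The deposited values are log2 values after RMA (robust multichip average), so 1 unit is a 2-fold difference in signal. They describe 1 probe set across embryos and do not rank genes against each other. Array medians lay between 6.34 and 6.53, and single values between 2.97 and 13.68. Over all 28815 probe sets the median difference between genotypes was 0.05, with 67.1% of probe sets higher in Parg(110)-/+. In WT embryos Parg itself averaged 10.54 ± 0.41 (SD, n = 9), against 10.23 ± 0.48 in Parg(110)-/+ (limma adjusted p = 0.571), and where its probes lie relative to the deleted exons was not examined. The mean of the 16 Dux- and MERVL-linked 2-cell genes listed here lay between 9.08 and 9.99 in every embryo, where the median probe set mean was 6.47. Blood cell genes averaged 5.36 to 5.64, and sperm and spermatid genes 5.82 to 5.99.

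Most of the 9 probe sets were bright: 8 had a mean at or above the median of all probe sets, the exception being Usp17la. Tdpoz2 was detected strongly in every embryo. Probe set 10493999 ran from 11.15 over a median of 11.54 to 12.13 in WT, and from 10.83 over 11.26 to 12.08 in Parg(110)-/+ embryos. Probe set 10499961 ran from 8.71 over 9.38 to 11.05 in WT and from 8.05 over 8.85 to 10.67 in Parg(110)-/+. The genotypes overlapped widely in both, and the highest embryos of 10499961 were WT1-2 and PargB-2.

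Tdpoz1 was the most even member in WT embryos but for 1. The other embryos of this genotype lay between 9.09 and 9.31, whereas WT2-3 was at 7.87. In Parg(110)-/+ embryos Tdpoz1 ran from 8.68 (PargA-1) over a median of 9.21 to 9.91 (PargB-2). Tdpoz3 was the most variable of the 9. Embryos 1 to 3 of WT1 had 9.09, 9.06 and 9.04, those of WT2 had 11.25, 9.05 and 7.48, and those of WT3 had 8.75, 9.62 and 8.89. For PargA they were 6.70, 9.62 and 9.77, for PargB 11.19, 9.30 and 6.77 and for PargC 9.34, 7.55 and 9.20. Embryos of 1 father thus differed by up to 4.42 in log2 level (PargB-1 against PargB-3), and 1 high embryo was seen in each genotype, WT2-1 and PargB-1.

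Usp17la showed a different distribution, with 16 embryos near the lower end of the array scale and 2 far above them. The 9 WT embryos lay between 4.25 and 5.09 with a median of 4.54. The embryos of PargA stood at 4.34, 4.43 and 4.43, those of PargB at 7.63, 5.07 and 4.71, and those of PargC at 4.33, 4.42 and 8.07. PargB-1 and PargC-3 were thus the only embryos above 5.09, and the other embryos of their fathers lay within or close to the WT range.

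Usp17lc, with the near-identical start region, was spread in both genotypes. It ran from 6.89 over a median of 7.55 to 10.05 in WT, the highest embryo being WT2-2, and from 6.52 over 7.26 to 9.30 in Parg(110)-/+. PargB-1 (9.30) and PargC-3 (8.82) were its highest Parg(110)-/+ embryos, as they were for Usp17la. Usp17ld ran from 6.15 over 6.75 to 7.88 in WT and from 5.91 over 6.65 to 7.86 in Parg(110)-/+, with the 3 embryos of PargA at 5.91, 6.16 and 6.05.

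Usp17lb varied almost as much as Tdpoz3. WT1 gave 8.54, 9.47 and 7.63, WT2 gave 10.92, 9.97 and 8.30, and WT3 gave 9.73, 10.07 and 8.00. PargA gave 9.27, 10.12 and 8.63, PargB gave 9.56, 10.30 and 9.50, and PargC gave 6.39, 8.40 and 9.68. The lowest embryo was PargC-1, well below all others. Shared Usp17l, which pools 4 copies, had the smallest SD of the Usp17l group over all 18 embryos, though Usp17la was narrower in WT. It ran from 7.58 over 7.95 to 8.90 in WT and from 7.32 over 7.87 to 8.61 in Parg(110)-/+.

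**Figure D1:**
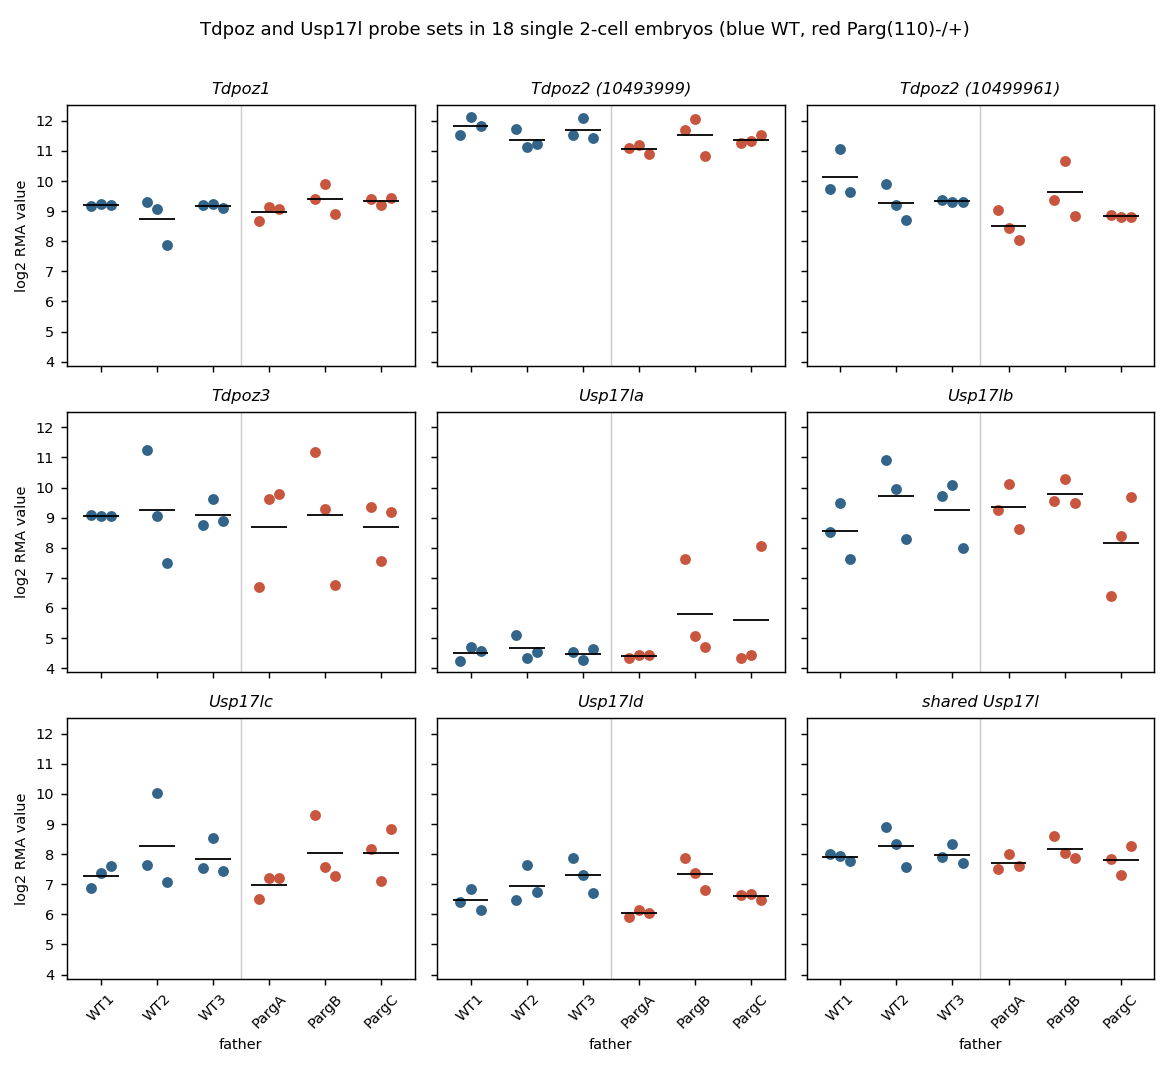
Log2 RMA values of the 9 Tdpoz and Usp17l probe sets (vertical axes) in 18 single 2-cell embryos, grouped by father; each point is 1 embryo and each line the mean of the 3 embryos of a father. Usp17la is between 4.25 and 5.09 in 16 embryos and at 7.63 and 8.07 in PargB-1 and PargC-3, and Tdpoz3 spans 6.70 to 11.25.

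The families varied from embryo to embryo. The SD over 18 embryos had a median of 0.737 over the 9 probe sets, against 0.204 over all probe sets and 0.324 over those at or above the median level. Other 2-cell genes varied as much: the 16 Dux- and MERVL-linked genes listed here had a median SD of 0.729, with Gm5662 at 1.85. All 9 lay above the median SD of all probe sets. SD depends on level on this array, however, and against the probe sets of their own decile of mean level 7 of the 9 lay above the median SD and 3 above the 90th percentile. Those 3 were Tdpoz3 (SD 1.24, higher than 94.7% of its decile), Usp17lb (1.11, higher than 92.5%) and Usp17la (1.10, higher than 95.9%). Tdpoz1 (0.404) and shared Usp17l (0.398) were below the median of theirs. From lowest to highest embryo, the signal of Tdpoz3 differed 23.3-fold, that of Usp17lb 23.0-fold, and that of Tdpoz2 10493999 only 2.46-fold. These values include amplification from single embryos, and biological and technical spread cannot be told apart with 1 array per embryo.

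**Figure D2:**
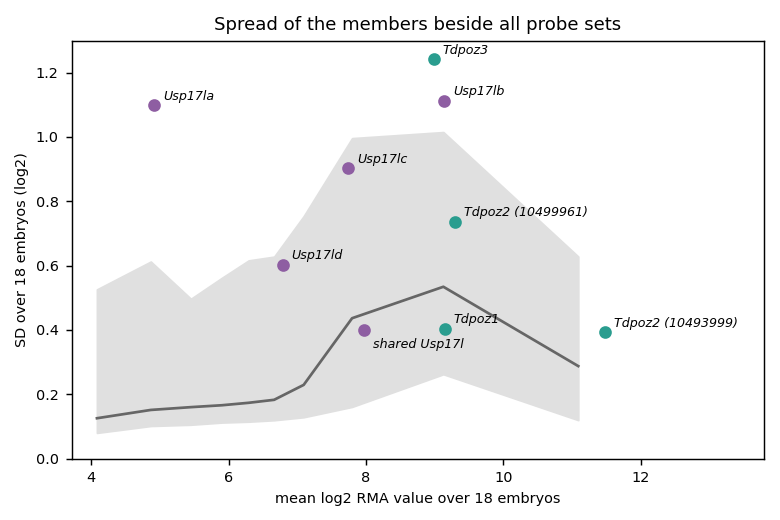
SD over 18 embryos (vertical axis, log2) against mean log2 RMA value (horizontal axis) for the 9 probe sets (green Tdpoz, purple Usp17l); the line is the median SD of all probe sets by decile of mean level and the grey band runs from their 10th to their 90th percentile. Tdpoz3, Usp17la and Usp17lb lie above the band and Tdpoz1 and shared Usp17l below the line.

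Between genotypes, no member passed the test. Of the 9 probe sets 0 passed limma at an adjusted p under 0.1 and 0 had an unadjusted p under 0.05; over all probe sets 0 (0%) passed, with 3018 at an unadjusted p under 0.05. Differences (Parg(110)-/+ minus WT, ± SE, 9 against 9 embryos) were positive for 2 members and negative for 7, with a median of -0.16 beside 0.05 over all probe sets. Tdpoz2 gave -0.60 ± 0.31 by probe set 10499961 (adjusted p = 0.503) and -0.30 ± 0.17 by 10493999 (adjusted p = 0.529). Tdpoz3 gave -0.31 ± 0.57, which was -0.04 without either WT2-1 or PargA-1 and -0.05 without PargB-3. Tdpoz1 gave 0.20 ± 0.18. Among the proteases, Usp17la gave 0.72 ± 0.48 (adjusted p = 0.584), which was 0.37 without PargC-3, while Usp17ld gave -0.24 ± 0.27, shared Usp17l -0.16 ± 0.18, Usp17lc -0.11 ± 0.42 and Usp17lb -0.09 ± 0.52.

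The precision differed widely between members. The 95% confidence interval of the difference ran from -0.19 to 0.58 for Tdpoz1 and from -0.66 to 0.05 for Tdpoz2 10493999, but from -1.51 to 0.89 for Tdpoz3 and from -1.17 to 1.00 for Usp17lb. For the last 2 the interval thus held a fall of 2-fold in signal, as did that of Tdpoz2 10499961 (-1.25 to 0.06). For Usp17la (-0.29 to 1.73) it held a rise of 2-fold. The Tdpoz4 and Tdpoz5 signals, which pool other copies, gave differences of 0.01 ± 0.10 (the probe set naming Tdpoz4 and Tdpoz8) and of -0.14 ± 0.21 and -0.05 ± 0.20 (the probe sets naming Tdpoz1, Tdpoz5, Tdpoz7 and Tdpoz9, which form 2 pairs of identical values).

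**Figure D3:**
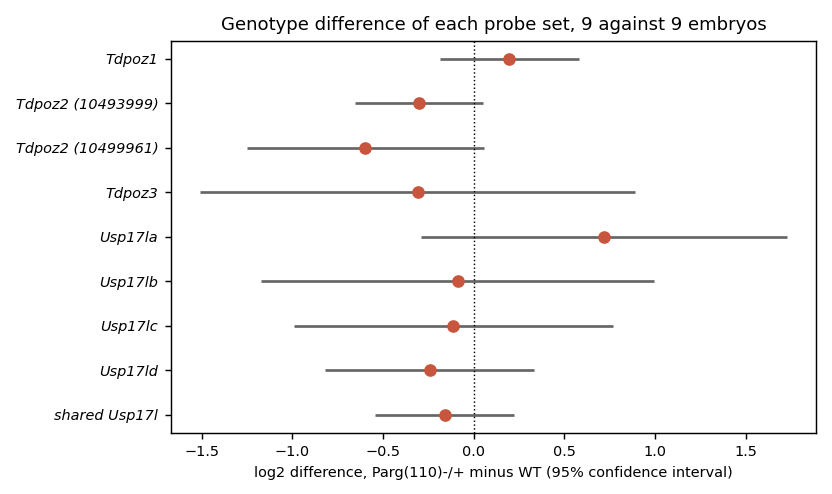
Log2 difference of each probe set between 9 Parg(110)-/+ and 9 WT embryos (horizontal axis; points are estimates and bars 95% confidence intervals from limma). Every interval includes 0, from the narrowest (Tdpoz2 10493999, -0.66 to 0.05) to the widest (Tdpoz3, -1.51 to 0.89).

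By father, the embryos of PargA held the lower values of several members, but none passed the adjusted threshold. Against the 9 WT embryos, 0 of the 9 members were called for PargA, PargB or PargC, where 0%, 0.0139% and 0.0104% of all probe sets were called. In PargA embryos, 3 members had an unadjusted p under 0.05: Tdpoz2 10499961 (-1.08 ± 0.40), Tdpoz2 10493999 (-0.56 ± 0.23) and Usp17ld (-0.87 ± 0.31), with adjusted p of 0.912 each; 5.32% of all probe sets had such an unadjusted p in this comparison. The Usp17ld values of the PargA embryos, 5.91 to 6.16, overlapped those of WT embryos only at their lower end (6.15). In PargB and PargC embryos, Usp17la gave 1.25 ± 0.65 and 1.06 ± 0.65 (adjusted p = 0.430 and 0.795). Without PargB-1 the first was 0.34, and without PargC-3 the second was -0.17.

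A level shared by the 3 embryos of a father was not detected. In an F test between fathers of the same genotype, 0 of the 9 members were called among WT fathers (0.00347% of all probe sets) and 0 among Parg(110)-/- fathers (0.0104%). Usp17ld came closest among the latter, with means of 6.04 ± 0.12 (SD, n = 3) for PargA, 7.35 ± 0.53 for PargB and 6.60 ± 0.10 for PargC (limma F test adjusted p = 0.819). Among WT fathers the adjusted p was 1.00 for each member.

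Single embryos gave the differences that did pass. Each Parg(110)-/+ embryo was set against the 9 WT embryos, and each WT embryo against the other 8, with limma; a lone embryo is then assumed to vary like WT embryos, and such a test picks out embryos that stand apart for any reason. Among the 9 members, 1 probe set was called in each of PargB-1, PargC-3, WT2-2 and WT2-3, which is 2 calls in each genotype. Over all probe sets and embryos, 0.865% of tests were called in Parg(110)-/+ embryos and 0.731% in WT embryos.

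Usp17la was higher than in WT by 3.08 ± 0.26 in PargB-1 (limma adjusted p = 0.000221) and by 3.52 ± 0.26 in PargC-3 (limma adjusted p = 0.000143). In these embryos 1.2% and 0.729% of all probe sets were called higher. Both calls held when any 1 WT embryo was left out, with differences of 3.05 to 3.15 and 3.48 to 3.59. These differences are given without a fold: Usp17la lies low on the array scale in WT embryos, where RMA compresses differences, and whether it was above background there was not tested. The SE came from those WT values alone (SD 0.26, against 1.49 in Parg(110)-/+ embryos), and each call rests on 1 embryo. PargB-1 was also the embryo with the most calls of all 18, 625 probe sets in either direction, whereas PargC-3 had 243 and the other embryos 138 to 330.

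Other Usp17l members were not called in PargB-1 or PargC-3. Usp17lc stood at 9.30 and 8.82 there, Usp17ld at 7.86 and 6.48, Usp17lb at 9.56 and 9.68 and shared Usp17l, which names Usp17la among its genes, at 8.61 and 8.28. The 2 embryos were thus the highest and second highest Parg(110)-/+ embryos for shared Usp17l, with WT embryos up to 8.90. For Usp17ld, PargB-1 was the highest of the Parg(110)-/+ embryos while PargC-3 was below their median of 6.65.

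In WT embryos, Tdpoz1 was lower in WT2-3 than in the other 8 by 1.32 ± 0.10 (2.50-fold, limma adjusted p = 0.000489); 0.0486% of all probe sets were called lower in this embryo. Tdpoz3 (7.48) was also at its WT minimum in WT2-3, and so were Tdpoz2 10499961 (8.71) and shared Usp17l (7.58). Usp17lc was higher in WT2-2 than in the other 8 by 2.53 ± 0.47 (5.77-fold, limma adjusted p = 0.0872), where 0.569% of all probe sets were called higher. That call was lost on leaving out 1 of the other WT embryos WT1-2, WT1-3, WT2-1, WT2-3, WT3-1 or WT3-3, with adjusted p of 0.125 to 0.166.

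Large differences of the more variable members did not pass. Tdpoz3 gave -2.43 ± 0.94 in PargA-1 (limma adjusted p = 0.815) and -2.36 ± 0.94 in PargB-3 (limma adjusted p = 0.465), and Usp17lb gave -2.79 ± 1.07 in PargC-1 (limma adjusted p = 0.489). Tdpoz3 in WT2-1 was 2.38 ± 0.59 above the other WT embryos (limma adjusted p = 0.230). Leaving out WT2-3 brought in 1 further Parg(110)-/+ call, Tdpoz1 in PargB-2 (0.72, limma adjusted p = 0.0270), and 2 in WT embryos, Tdpoz3 in WT2-1 (2.18, limma adjusted p = 0.0129) and Tdpoz2 10499961 in WT1-2 (1.55, limma adjusted p = 0.0980). Leaving out WT2-1 brought in Tdpoz3 in WT2-3 (-1.59, limma adjusted p = 0.0752).

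**Figure D4:**
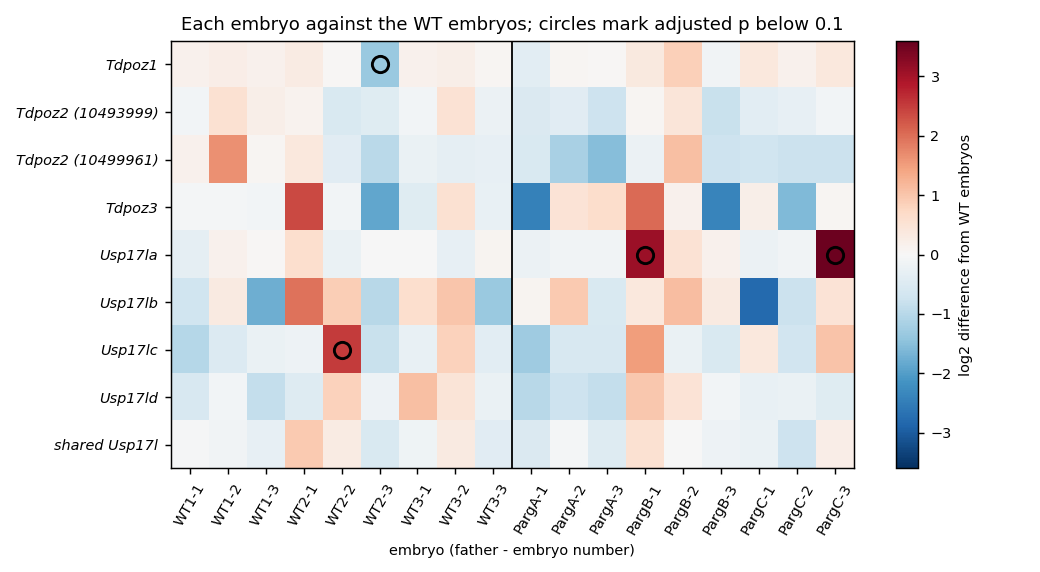
Log2 difference of each embryo (horizontal axis, named by father and embryo number) from the WT embryos for the 9 probe sets (rows), in colour; each WT embryo is set against the other 8 WT embryos. Circles mark the 4 calls at an adjusted p under 0.1: Usp17la in PargB-1 and PargC-3, Usp17lc in WT2-2 and Tdpoz1 in WT2-3.

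Whether Parg(110)-/+ embryos vary more than WT embryos was compared as the mean absolute deviation from the median of the genotype. Of the 9 members 0 were called (0% of all probe sets, with 696 at an unadjusted p under 0.05). This count does not show equal spread, since on simulated data no change of the SD passed this adjustment either. The deviation of Usp17la was 0.18 in WT and 0.88 in Parg(110)-/+ embryos (difference 0.71 ± 0.47, limma adjusted p = 0.991), and that of Tdpoz3 was 0.54 and 1.08 (difference 0.54 ± 0.43, limma adjusted p = 0.991). For Usp17lb the order was the opposite, 0.91 in WT and 0.77 in Parg(110)-/+. The other 6 members differed between genotypes by 0.09 or less in this measure.

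Members of 1 family tended to be high and low in the same embryos. Pearson's r over the 18 embryos was above 0 in all 6 Tdpoz pairs (median 0.48, 0.23 to 0.80) and in all 10 Usp17l pairs (median 0.44, 0.21 to 0.62), as well as in all 20 pairs between the families (median 0.29, 0.01 to 0.75). Each member's median r with all other probe sets of the array lay between -0.09 and 0.03. The highest r were those of the 2 Tdpoz2 probe sets (0.80, Spearman's rho 0.76) and, between families, of Tdpoz3 with shared Usp17l (0.75, rho 0.66). By rank some pairs were weak, such as Tdpoz3 with Tdpoz2 10499961 (rho 0.13) and Tdpoz3 with Usp17ld (rho -0.02). These are descriptions over embryos whose values share 1 amplification and 1 normalization, and probes of related copies may share transcripts.

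As a score per family, the log2 values minus their 18-embryo means were averaged over its members. The 2 scores had r = 0.52 (rho 0.48) over 18 embryos, 0.54 after subtracting the means of the genotypes, and 0.54 without WT2-3 and PargB-3, the 2 embryos farthest from the median Tdpoz score. The Tdpoz score was highest in WT2-1 (0.83), PargB-2 (0.77) and PargB-1 (0.70) and lowest in WT2-3 (-0.90), PargB-3 (-0.88) and PargA-1 (-0.84). The Usp17l score was highest in PargB-1 (1.28) and PargC-3 (0.96) and lowest in PargC-1 (-0.64) and PargA-1 (-0.60). Members were not scaled, so Usp17la weighed heavily in both high scores (7.63 and 8.07, 18-embryo mean 4.91). In PargC-3, Usp17ld (6.48) lay below its mean of 6.79 and the other members above theirs. PargA-1 was low in both families and held the minimum of 3 of the 9 members, Tdpoz3, Usp17lc and Usp17ld; WT2-1 held the maximum of 3, Tdpoz3, Usp17lb and shared Usp17l.

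**Figure D5:**
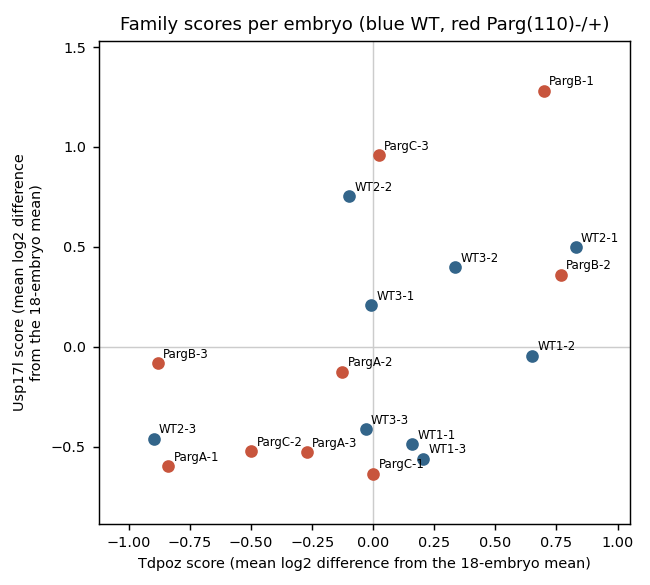
Usp17l score (vertical axis) against Tdpoz score (horizontal axis), each the mean log2 difference from the 18-embryo mean over the members of the family; each point is 1 embryo. The scores run together (r = 0.52), with PargB-1 high in both, PargA-1 and WT2-3 low in both, and WT and Parg(110)-/+ embryos intermixed.

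Other transient 2-cell genes leaned the same way as the families. Of the 48 listed Dux- and MERVL-linked genes, 16 had a probe set naming 1 gene; Zscan4 copies share probe sets and were not measured singly. Their r was above 0 for 12 of 16 with the Tdpoz score (median 0.31) and for 12 of 16 with the Usp17l score (median 0.21), beside 41.5% and 44.4% of all 19928 genes (medians -0.06 and -0.04). The mean of the list had r = 0.57 (rho 0.37) with the Tdpoz score and 0.51 (rho 0.50) with the Usp17l score. Among its genes, Rfpl4b, an RFPL-family gene, and Tmem92, a transmembrane protein gene, had r of 0.60 and 0.59 with the Usp17l score, and Tcstv3, a gene of a 2-cell-specific cluster, had r of 0.50 with the Tdpoz score and 0.53 with the Usp17l score. Pramel6, of the PRAME-like family, had -0.17 and -0.44.

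The 4 embryos with the highest Tdpoz scores, WT2-1, PargB-2, PargB-1 and WT1-2, also had the highest means of this list (9.90 to 9.99). PargB-1 held the maximum of 5 of the 16 genes, Zfp352 (11.93), Gm5662 (11.45), Tmem92 (11.72), Arg2 (9.99) and Ubtfl1 (11.58), though none of these was called in it by limma (adjusted p of 0.437 to 0.827). On the same list PargB-1 held the minimum of 1 gene, Pramel7 (11.28). High values in PargB-1 were not particular to this list. Maternal oocyte genes such as Gdf9 (11.74), Bmp15 (12.57), Btg4 (12.46) and Wee2 (12.46) had their maximum there too. Of the 16 genes, WT2-1 held the maximum of 3, and PargB-2 and WT3-1 of 2 each. Tmem92 had its minimum in PargC-1, at -3.25 from the WT mean. Between genotypes, 10 of the 16 genes were higher and 6 lower in Parg(110)-/+ embryos (median 0.12, beside 0.05 over all probe sets), and 0 were called. The smallest p belonged to the PRAME-like gene Pramel17, at 7.81 in WT and 6.61 in Parg(110)-/+ embryos (-1.21 ± 0.44, limma adjusted p = 0.402).

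Lists that mark the handover from oocyte to embryo transcripts were correlated with the family scores in opposite directions. The mean of 24 maternal oocyte transcripts had r = 0.42 (rho 0.21) with the Tdpoz score and 0.45 (rho 0.33) with the Usp17l score, and that of 21 genes of early embryonic transcription had -0.49 (rho -0.53) and -0.56 (rho -0.49). Their part in the family levels was not tested. Across embryos these 2 lists ranged from 9.87 to 10.51 and from 9.68 to 10.11. Between genotypes 16 of 24 maternal genes were higher and 8 lower (median 0.06), and 8 of 21 embryonic genes were higher and 13 lower (median -0.05), with 0 called in either. The 21 measured regulators of the 2-cell program gave r of -0.36 and -0.07 with the 2 scores and 0 calls between genotypes. Trim28, a corepressor of retroviral elements, gave -0.42 ± 0.21 between genotypes (limma adjusted p = 0.490). It was lower in PargB-1, at 8.19 against 8.90 to 9.85 in WT embryos. Other regulators stood apart in other embryos. Dppa4 was low in PargA-1 (8.55, WT 9.46 to 10.02) and Zfp42 high in PargC-2 (10.58, WT 6.76 to 8.49).

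As lists, markers of other cells had r between -0.32 and 0.05 with the family scores. The r of the cumulus, granulosa and oviduct list was -0.09 and 0.05 with the Tdpoz and Usp17l scores, that of sperm and spermatid genes -0.15 and -0.32, and that of blood cell genes -0.13 and -0.22. Their mean levels in WT and Parg(110)-/+ embryos were 6.20 to 6.42 and 6.28 to 6.55 (18 genes), 5.82 to 5.99 and 5.90 to 5.99 (20 genes), and 5.36 to 5.60 and 5.51 to 5.64 (9 genes). Higher in Parg(110)-/+ were 16 of 18, 18 of 20 and 8 of 9 of them, with medians of 0.09, 0.07 and 0.09 and 0 calls. These shares were larger than the 67.1% of all probe sets that were higher (median 0.05). Most genes of these lists were dim, with 6, 7 and 1 at or above the median level of all probe sets. Some genes of these lists were called in single Parg(110)-/+ embryos, mostly on the cumulus, granulosa and oviduct list. The lists were not examined in single WT embryos, so these calls have no WT counterpart here. Krt8, a keratin gene of simple epithelia, was called in PargB-1, where Usp17la was called too, at 9.84 against 7.31 to 7.78 in WT embryos (2.25 ± 0.18, limma adjusted p = 0.000195), and had r = 0.49 with the Usp17l score. Its partner Krt18 stood at 6.40 in PargB-1, above the WT range of 5.61 to 6.22 but near the Parg(110)-/+ mean of 6.43. The epithelial gene Epcam had its minimum over all embryos in PargB-1 (7.92). The part of such cells in the Usp17la level of PargB-1 was not tested. The other calls were Krt18 in PargB-2, Inhba in PargA-2 and PargB-2, Ptx3 in PargB-3 and, among sperm and spermatid genes, Ldhc in PargA-3; none was in PargC-3.

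In the ubiquitin pathways around the families, no gene was called between genotypes either. Of 10 measured SPOP relatives and CUL3 ligase genes, 5 were higher and 5 lower in Parg(110)-/+ embryos (median -0.01). Spop itself stood at 10.82 in WT and 10.77 in Parg(110)-/+, Cul3, the scaffold, at 12.40 and 12.38, and the smallest p was that of Rbbp4, a histone-binding protein that is no ligase subunit (-0.56 ± 0.16, limma adjusted p = 0.362). Spopfm2, a SPOP-like gene, had r of 0.55 and 0.57 with the Tdpoz and Usp17l scores. Cand1, which exchanges the substrate adaptors of cullin ligases, had r of -0.42 and -0.69. Tdpoz8, a relative outside the 5 genes taken here, averaged 6.16 and 6.12 in WT and Parg(110)-/+ embryos.

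A further 51 genes, all with USP names but Cyld, were nearly all ubiquitin-specific proteases (Usp6nl and Uspl1 are not). Of these, 25 were higher and 26 lower (median -0.01), and 0 were called. By limma 6 of the 51 had an unadjusted p under 0.05, as had 10.5% of all probe sets. The smallest p were those of Usp26 (5.06 in WT and 5.68 in Parg(110)-/+, 0.62 ± 0.15, limma adjusted p = 0.362), Usp48 (-0.27 ± 0.10, limma adjusted p = 0.420) and Usp50 (-0.65 ± 0.25, limma adjusted p = 0.420). The mean of the list had r = 0.37 with the Tdpoz score and 0.45 with the Usp17l score.

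The genes whose levels ran most like a family over the 18 embryos were picked by Pearson's r among 21771 probe sets naming 1 gene. For Tdpoz, the first was Fbxw13 (r = 0.80), an F-box and WD40 gene of a tandem cluster with oocyte expression, at 6.73 to 8.91. It was followed by Smap1 (0.75), Abl2 (0.74), Mon2 (0.73), Cd2ap (0.72), Tmtc1 (0.71), Camsap2 (0.71), Nsd1 (0.71), Scaper (0.70) and Nfe2l1 (0.70). Without WT2-3 and PargB-3 these 10 had r of 0.50 to 0.70. The lowest r were those of Gm10419 (-0.79), Olfr569 (-0.76), Npdc1 (-0.75), Mir568 (-0.75) and Jmy (-0.75); Gm10419, Olfr569 and Mir568 had SDs of 0.11 to 0.14, so little in level separates their embryos.

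For Usp17l, the most alike were Gm4971 by both of its probe sets (r = 0.85 and 0.82), Prdm2 (0.83), Lef1 (0.83), Kdelr1 (0.82), Prkch (0.79), Pard3b (0.79), Ccdc186 (0.78), Runx1t1 (0.78) and Aldh8a1 (0.76). Gm4971, at 9.08 to 11.88 and 8.45 to 11.29, kept r of 0.81 and 0.79 without PargB-1 and PargC-3, the embryos with the highest Usp17l scores, whereas Kdelr1 dropped to 0.60. Pard3b, Ccdc186 and Aldh8a1 had SDs of only 0.09 to 0.15. Lowest were Gins3 (-0.80), Utp23 (-0.80), Hnrnph2 (-0.79), Tomm5 (-0.78) and Larp1b (-0.76). These r were the extremes of all named probe sets over 18 embryos, and no test was attached to them.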

How the data were processed

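The authors amplified cDNA of single embryos (WT-Ovation One-Direct, NuGen), hybridized it to Mouse Gene 1.0 ST arrays and deposited log2 values made by RMA in Partek Genomics Suite (background correction, quantile normalization, log2 transformation and probe set summarization; no versions are stated in the labels or methods). Quantile normalization can reduce changes shared by most genes, and RMA compresses dim probe sets. The precision is limited by the number of arrays, and scan days and slides were not used here.

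Groups followed the labels. All 28815 deposited probe sets were tested with limma 3.58.1 in R 4.3.3 (two-sided, Benjamini-Hochberg over all probe sets, called at 0.1 as in the authors' methods). Symbols came from the platform annotation, in which 21780 probe sets name 1 gene, 1605 several and 5430 are not listed, and positions and promoters from RefSeq. A listed gene was read from its brightest probe set naming 1 gene. All members, the 10 highest and 5 lowest r per family, and the smallest p of each list were named. Members, lists and comparisons were chosen with earlier results of these data known. Embryos of 1 father are related, so p-values over embryos also count shared fathers as independent. The fits were tested on simulated data. Alternatives were other scalings, bright probe sets only, the father or the embryo number in the fit, means per father, a plain one-way test, and leaving out embryos or fathers.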

Additional observations from a re-analysis of the deposited data

Results flagged for a closer look

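In groups of 9 embryos, the gap between the outermost embryo and its neighbour, as a share of the whole range of the group, was compared with Dixon's 95% critical value, for each of the 9 members and both family scores in both genotypes. Of 22 groups 3 exceeded it, and chance gives about 1 in 20. Tdpoz1 in WT embryos had a share of 0.846, with WT2-3 at 7.87 and the next embryo at 9.09. Tdpoz2 10499961 in Parg(110)-/+ embryos had 0.496, with PargB-2 at 10.67 and the next at 9.37. Usp17lb in Parg(110)-/+ embryos had 0.515, with PargC-1 at 6.39 and the next at 8.40. Usp17la in Parg(110)-/+ embryos did not exceed it because PargB-1 and PargC-3 were both high and shielded each other. No cause of these values was tested.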

How the results depend on the processing

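No member was called between genotypes in any alternative run, including equal array medians, a second quantile normalization, the plain one-way test, the father as a random block, means per father and the replicate block on embryo number (0 members and 0 probe sets called); embryos of the same number did not deviate together (mean correlation -0.003, and 0.001 for other numbers), so the number does not pair embryos. Over all probe sets the genotype count was 3 without father WT1 and 0 to 1 on leaving out 1 embryo. Signs of small differences turned: Usp17lc to 0.12 without father WT2 and 0.24 without PargA, Usp17lb to 0.19 without WT2 and 0.38 without PargC, and Usp17ld to 0.070 without PargA. On leaving out 1 embryo Tdpoz3 ranged from -0.60 to -0.04, shared Usp17l from -0.25 to -0.05 (the latter without WT2-1), Usp17lb from -0.28 to 0.25, Usp17lc from -0.31 to 0.17, and the PargC difference of Usp17la from -0.17 to 1.70. With bright probe sets only, counts were 4 by father (7 in the full table), 2 between fathers (4), 880 and 511 in single Parg(110)-/+ and WT embryos (2242 and 1895), 0 members in Parg(110)-/+ embryos, since Usp17la is then left out, and 1 in WT embryos, where Usp17lc in WT2-2 had an adjusted p of 0.111. Leaving out 1 embryo gave 4 to 75 probe sets by father, 2 to 21 between fathers, 1 to 2 members in WT and 2 to 3 in Parg(110)-/+ embryos and 0 to 1 probe sets for spread, which rose to 22 with deviations from the genotype mean (0 members). The family correlation stayed between 0.44 and 0.57. Levels near the lower end of the array scale, as for Usp17la, limit fold estimates.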
